A study of Mus musculus with 6 samples.

Results

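The aldehyde dehydrogenases described here are 9 mouse genes, Aldh1a1, Aldh1a2, Aldh1a3, Aldh1a7, Aldh1b1, Aldh2, Aldh3a2, Aldh3b1 and Aldh9a1, found by gene name among the 56748 genes of a deposited count table. They are 9 of the 21 Aldh genes in that table. The list was selected on measured values: it was drawn up with each gene's counts in the 2 groups of libraries known. The members' levels and fold changes are therefore given as a description and carry no p-value. Genes outside the list were tested, but the lists that group them were also chosen with earlier results of these data known. Their counts per list are therefore a description as well.

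The libraries are bulk RNA sequencing of bone marrow leukemia cells of mice, all carrying MLL-AF9, an oncogenic fusion of MLL and AF9 that drives acute myeloid leukemia. Of the 6 libraries, 3 are labelled Rbm5 KO (numbers 31, 32 and 40) and 3 carry the wild-type label (numbers 25, 27 and 29). RBM5 is an RNA-binding protein of the splicing machinery, and the series asks how it acts on the self-renewal program of this leukemia. The labels give no strain, age or way of deleting Rbm5, describe the RNA source in one place as whole marrow and in another as cultured cells, and call the replicates independent. Because the RNA may be of whole marrow, cells of the host other than leukemia cells can contribute to each value.

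Aldehyde dehydrogenases oxidize aldehydes to carboxylic acids with NAD or NADP as the electron acceptor. ALDH1A1, ALDH1A2 and ALDH1A3 make retinoic acid from retinaldehyde, mitochondrial ALDH2 clears acetaldehyde and lipid peroxidation products, and other members act on fatty or amino aldehydes. High aldehyde dehydrogenase activity is a long-used mark for sorting blood stem cells and leukemia stem cells, and endogenous aldehydes damage the DNA of blood stem cells.

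Aldh1a7, a rodent copy of Aldh1a1, had counts in 1 group only, while Aldh1a1 was near 0 in both. The promoters of this pair are shown first for that reason, with those of Aldh1b1 and Aldh3b1, the other members counted as called below. The bases run 5′ to 3′ on the gene's strand, from 250 before to 50 after the start site. They are RefSeq promoters on GRCm38.p6. Capitals mark matches to any of 6 motifs searched on both strands.
Aldh1a1 (chr19:20601718-20602017, plus strand): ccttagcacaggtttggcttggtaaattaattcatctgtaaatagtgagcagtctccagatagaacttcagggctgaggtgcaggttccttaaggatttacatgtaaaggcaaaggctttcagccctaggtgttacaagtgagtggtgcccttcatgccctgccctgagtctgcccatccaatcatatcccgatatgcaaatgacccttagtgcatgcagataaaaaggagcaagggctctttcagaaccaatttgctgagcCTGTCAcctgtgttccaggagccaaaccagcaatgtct
Aldh1a7 (chr19:20727507-20727806, minus strand): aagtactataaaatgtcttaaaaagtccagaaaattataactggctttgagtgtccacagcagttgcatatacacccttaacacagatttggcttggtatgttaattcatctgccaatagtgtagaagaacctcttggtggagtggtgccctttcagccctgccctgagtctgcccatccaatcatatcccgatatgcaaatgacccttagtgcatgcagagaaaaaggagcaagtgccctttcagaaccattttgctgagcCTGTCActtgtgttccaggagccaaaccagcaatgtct
Aldh1b1 (chr4:45798772-45799071, plus strand): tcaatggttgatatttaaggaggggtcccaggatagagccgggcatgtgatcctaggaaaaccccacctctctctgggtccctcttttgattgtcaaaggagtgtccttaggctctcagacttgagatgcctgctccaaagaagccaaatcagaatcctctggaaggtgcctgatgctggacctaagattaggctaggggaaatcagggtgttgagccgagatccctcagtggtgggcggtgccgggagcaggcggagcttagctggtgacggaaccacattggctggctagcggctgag
Aldh3b1 (chr19:3929729-3930028, minus strand): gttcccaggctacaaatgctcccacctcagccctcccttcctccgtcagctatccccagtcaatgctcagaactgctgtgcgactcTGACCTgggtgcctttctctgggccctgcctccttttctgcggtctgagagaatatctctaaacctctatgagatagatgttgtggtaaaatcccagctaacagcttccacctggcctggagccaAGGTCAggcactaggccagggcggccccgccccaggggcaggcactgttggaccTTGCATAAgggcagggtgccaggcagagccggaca

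The Aldh1a1 window shown is the downstream one of its 2 RefSeq start sites. It aligned with the Aldh1a7 window over 160 bases, of which 152 (95.0%) were identical. The upstream Aldh1a1 window aligned with Aldh1a7 over only 22 bases. The capitals in the Aldh1a1 and Aldh1a7 windows are the MEIS motif TGACAG on the minus strand, which begins at the same distance (12 bases) after the start site in both and which 19.2% of 32851 promoter windows hold. The upstream Aldh1a1 window, not shown, also holds TGACAG and the C/EBP motif. Aldh3b1 holds the C/EBP motif TTGCNNAA, found in 10.8% of windows, and 2 copies of the retinoic acid receptor half-site AGGTCA, found in 16.3%. The Aldh1b1 window holds none of the 6. The others searched were the MYC E-box CACGTG (7.15% of windows), the NRF2 element TGACNNNGC (12.4%) and the HOXA9-PBX motif TGATTTAT (0.977%). Of the members, 7 of 9 had a promoter in the table, and among them the E-box occurred in Aldh3a2 and the NRF2 element in Aldh1a2 and Aldh9a1. A match describes letters in a window and says nothing about binding.

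Facts of the libraries bear on every value below. Totals ran from 26359299 to 31807588 counts. Values are CPM, counts relative to a library size scaled by TMM, a factor that sets the bulk of genes level between libraries. Rbm5, the targeted gene, did not fall in knockout, with 227, 214 and 174 CPM in wild type and 269, 267 and 245 CPM in knockout, so each direction rests on the labels, and "knockout" and "wild type" stand throughout for the libraries labelled so. The Y-linked gene Ddx3y had 0 counts in each wild-type library and 2645 to 3311 in the knockout libraries, so sex and the knockout label cannot be told apart. The 14 mature neutrophil markers summed to 1058 to 3900 CPM in wild type and 12947 to 29868 CPM in knockout. By the edgeR test 9 of 14 were higher, where 5.45% of all genes tested were higher. The other 5 did not pass, and no marker was at 0 in all libraries. In such bulk samples, a change in the share of a cell type and a change in RNA per cell cannot be told apart.

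Most of the family's RNA came from 3 members, and Aldh1a1, Aldh1a2 and Aldh1a3, whose enzymes make retinoic acid, were below 1 CPM in every library. Per length, taking CPM per kilobase of the table's gene length, Aldh2 made up 45.3% ± 2.01 of the 21-gene total in wild type and 47.1% ± 1.39 in knockout (SD, n = 3 each). Aldh3b1 made up 20.1% ± 2.15 (SD, n = 3) in wild type and 26.6% to 27.6% in the 3 knockout libraries, and Aldh9a1 11.6% ± 1.35 in wild type and 9.07% ± 0.763 in knockout (SD, n = 3 each). The 9 members together held 83.3% to 85.4% of the total in the wild-type libraries and 87.4% to 90.3% in the knockout libraries. The order by level per length in wild type was Aldh2, Aldh3b1, Aldh9a1, Aldh3a2, Aldh1b1 and Aldh1a7, and no neighbours in that run had overlapping library ranges. Aldh1a3, Aldh1a2 and Aldh1a1 followed, and their ranges overlapped. In knockout the first 5 kept this order without overlap, while Aldh1a7 was last.

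**Figure D1:**
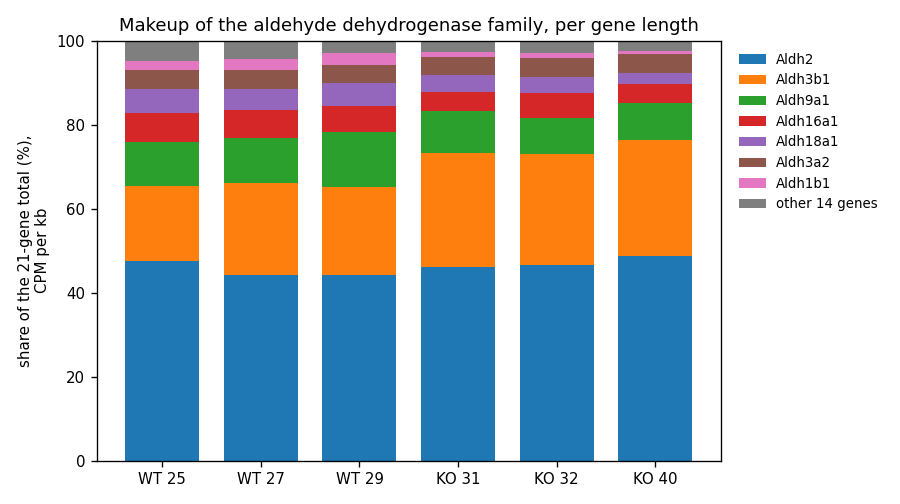
Share of the 21-gene aldehyde dehydrogenase total in each library, in percent of summed CPM per kilobase. Each bar is 1 library and each colour 1 gene, with the 7 highest shown by name. Aldh2 takes 44.1% to 48.7% of every bar, and the Aldh3b1 band is wider in the knockout bars (26.6% to 27.6%) than in the wild-type bars (17.7% to 21.7%).

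Of the 9 members, 6 passed edgeR's filter on low counts and 3 (Aldh1a1, Aldh1a2 and Aldh1a3) did not. With edgeR's quasi-likelihood test over all 15963 genes, adjusted p under 0.05, 1 member (Aldh3b1) was called higher and 2 (Aldh1a7 and Aldh1b1) lower in knockout. Of all genes tested, 8.57% were called, 5.45% higher and 3.12% lower. Since the list was made with this contrast known, nothing is read from the members' count. Aldh1b1 was not among the called without library 27, 29 or 40, and DESeq2 also called Aldh2 and Aldh3a2 higher. The 2 groups did not overlap for 5 members, Aldh2, Aldh3a2 and Aldh3b1 higher and Aldh1a7 and Aldh1b1 lower, where 33.7% of all tested genes had groups that did not overlap, 17.2% higher and 16.5% lower. Aldh1a7 passed the filter through the wild-type libraries only, so it had to differ. The median log2 fold change of all tested genes was -0.01.

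**Figure D2:**
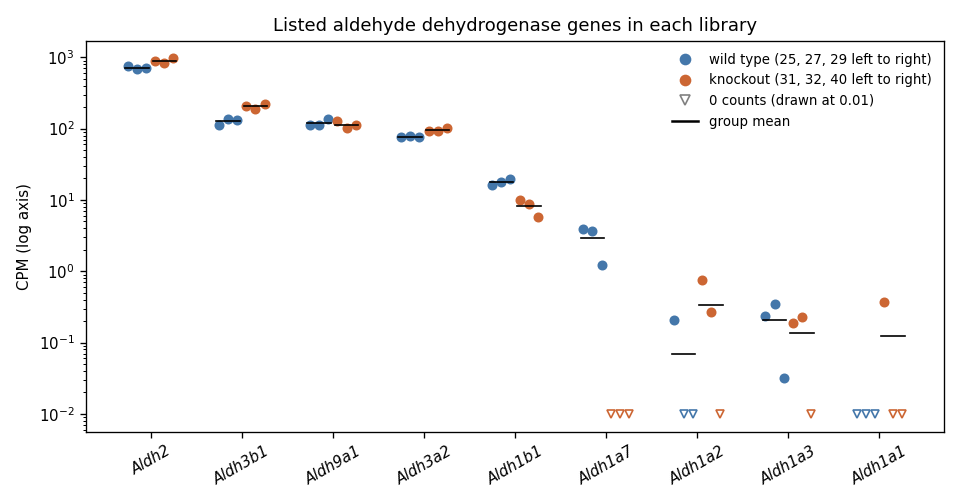
CPM of each listed gene in each library on a log axis, with wild type in blue, knockout in orange and group means as black lines. Open triangles at 0.01 stand for libraries with 0 counts. Aldh1a7 has points in the 3 wild-type libraries and triangles in the 3 knockout libraries, while Aldh1a1, Aldh1a2 and Aldh1a3 stay below 1 CPM everywhere.

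Positions of genes from here on are those printed in the count table, which names no genome build. For Aldh1a7 and Aldh3b1 they do not line up with the GRCm38.p6 promoter positions above, so the 2 sets of positions are not combined. Of the ALDH1A genes, Aldh1a7 (ENSMUSG00000024747, chromosome 19, 20670317 to 20704926, minus strand) was the one member with counts in every library of 1 group and none in the other. It had 131, 104 and 39 counts in wild-type libraries 25, 27 and 29, or 3.85, 3.61 and 1.24 CPM, and 0 counts in knockout libraries 31, 32 and 40. Library 29 was the lowest of the wild-type libraries, and the groups did not overlap. The mean in wild type was 2.90 ± 1.45 CPM (SD, n = 3). With 0 counts allowing up to 3 over the knockout group (0.0387 CPM), it was at least 75.1-fold lower there. Aldh1a7 encodes a cytosolic enzyme close to ALDH1A1 in sequence.

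Aldh1a1 (ENSMUSG00000053279, chromosome 19, 20470079 to 20620829, plus strand), the retinaldehyde dehydrogenase often used as a stem cell marker, had 0 counts in 5 libraries and 10 in knockout library 31 (0.372 CPM). A count of 0 over the wild-type group allows up to 3 counts, or 0.0318 CPM, counting error only. Its pooled knockout level of 0.129 CPM was 4.06-fold that floor, but it rests on library 31 alone. The groups overlapped at 0 counts, so a difference between them was not detectable. Aldh1a2, the main retinoic acid maker of the embryo, had 7, 0 and 0 counts in wild type and 20, 7 and 0 in knockout. Aldh1a3, another enzyme of this kind, had 8, 10 and 1 counts in wild type and 5, 6 and 0 in knockout. For these 2 genes too the groups overlapped, and at such counts a difference was not detectable. Asb7, the nearest tested gene after Aldh1a3, rose by 0.54 ± 0.13 (SE) on the log2 scale (edgeR adjusted p = 0.0413).

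Because Aldh1a1 and Aldh1a7 are so alike, reads could be split between them. Their longest open reading frames in GENCODE M21 transcripts were 92.0% identical over 1504 aligned bases. Stretches of 31 bases shared with Aldh1a1 made up 13.8% of those of Aldh1a7, so most of the Aldh1a7 transcript is distinct at that length. Summed as 1 gene, the pair had a log2 fold change of -4.47, the 10 counts of library 31 being then the whole of the knockout group. The nearest tested genes around the pair, Anxa1 before it and Zfand5 after it, had log2 fold changes of 0.78 ± 0.26 and 0.36 ± 0.27 (SE) and did not pass (edgeR adjusted p = 0.114 and 0.438).

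Both Aldh1b1 and Aldh2 encode mitochondrial enzymes. Aldh1b1 (ENSMUSG00000035561, chromosome 4, 45799022 to 45804604, plus strand), a mitochondrial acetaldehyde and retinaldehyde oxidizing enzyme, was at 16.4, 17.7 and 19.5 CPM in wild-type libraries 25, 27 and 29 and at 9.97, 8.75 and 5.76 CPM in the knockouts 31, 32 and 40. The groups did not overlap, and knockout library 40 was the lowest. The means were 17.9 ± 1.56 and 8.16 ± 2.17 CPM (SD, n = 3 each), a log2 fold change of -1.13 ± 0.23 (SE). It ranged from -1.30 to -0.93 with 1 library left out. Of the nearest tested genes, the predicted gene Gm12409 before it fell by 2.65 ± 0.55 (SE) on the log2 scale (edgeR adjusted p = 0.0285), and Stra6l after it had 0.80 ± 0.48 (adjusted p = 0.324).

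Aldh2 (ENSMUSG00000029455, chromosome 5, 121704090 to 121731887, minus strand), the main acetaldehyde oxidizing enzyme, was at 758, 692 and 699 CPM in wild type and 887, 828 and 966 CPM in knockout. The groups stood apart by a small margin, with means of 716 ± 36.5 and 894 ± 69.1 CPM (SD, n = 3 each). The log2 fold change was 0.32 ± 0.10 (SE), and it was 0.19 when libraries were scaled by total counts alone, a scaling under which the median of all genes was -0.13. The predicted gene Gm42879, which overlaps Aldh2 on the other strand, was at 0.591 ± 0.049 and 0.191 ± 0.0689 CPM (SD, n = 3 each), far below it. Aldh1b1 and Aldh2 share 71.7% of aligned bases in their open reading frames and no stretch of 31 bases, so no read that long could come from both. Per length, Aldh2 was at 139.7 and Aldh1b1 at 7.78 CPM per kilobase in wild type, and at 174 and 3.55 in knockout.

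Of the fatty aldehyde enzymes, Aldh3b1 (ENSMUSG00000024885, chromosome 19, 3963491 to 3979808, minus strand), which oxidizes medium- and long-chain aldehydes from lipid peroxidation, stood higher in each knockout library than in any wild-type library. It was at 112, 135 and 133 CPM in wild-type libraries 25, 27 and 29 and at 207, 189 and 218 CPM in the knockouts 31, 32 and 40, with no overlap. Group means were 127 ± 12.7 and 205 ± 14.8 CPM (SD, n = 3 each), and the log2 fold change was 0.69 ± 0.11 (SE). It ranged from 0.61 to 0.74 with 1 library left out. Its neighbours Ndufs8 and Unc93b1 had log2 fold changes of -0.24 ± 0.13 and 0.38 ± 0.14 (SE) and did not pass (edgeR adjusted p = 0.265 and 0.126).

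Aldh3a2 (ENSMUSG00000010025, chromosome 11, 61114243 to 61158290, minus strand), the fatty aldehyde dehydrogenase whose loss causes Sjögren-Larsson syndrome in people, was the steadiest member within groups. It was at 77.2, 79.7 and 75.1 CPM in wild type and 91.4, 91.7 and 100.4 CPM in knockout, with coefficients of variation of 2.98% and 5.41%. The groups did not overlap, and its log2 fold change was 0.29 ± 0.09 (SE), or 0.16 with total counts alone. Aldh9a1 (ENSMUSG00000026687, chromosome 1, 167177560 to 167196101, plus strand), an aminoaldehyde enzyme of carnitine synthesis, was at 112, 113 and 137 CPM in wild type and 126, 100.4 and 114 CPM in knockout. Its groups overlapped, and the log2 fold change was -0.09 (95% interval -0.37 to 0.20), and it was -0.17 to 0.02 with 1 library left out, above 0 without wild-type library 29.

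**Figure D3:**
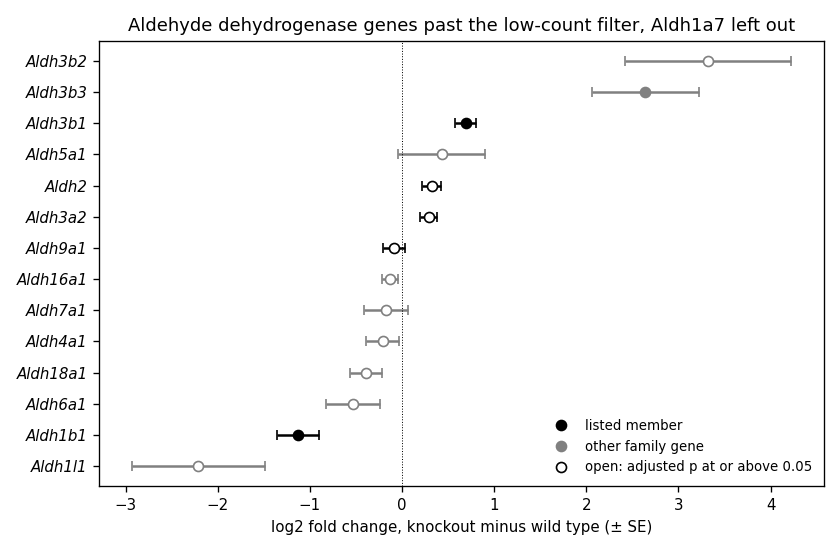
Log2 fold change, knockout minus wild type, with its SE, for family genes that passed the low-count filter, Aldh1a7 left out because its knockout level is 0. Black points are listed members, gray points other family genes, and filled points those with an edgeR adjusted p under 0.05. Aldh3b3 and Aldh3b1 are filled on the right and Aldh1b1 on the left. The listed members were chosen with this contrast known, so their filling is a description only.

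Of the 12 family genes outside the list, 9 passed the filter and were tested. Of these 9, 1 rose, 0 fell and 8 did not pass by edgeR, where 8.57% of all genes tested were called. Their median log2 fold change was -0.17. An unadjusted p under 0.05 was found for 3, and DESeq2 called 3 (Aldh3b2 and Aldh3b3 higher, Aldh1l1 lower) and limma-voom 2 (Aldh3b2 and Aldh3b3). Aldh3b3, a close relative of Aldh3b1 on the same stretch of chromosome 19, was at 0.147, 0.625 and 0.381 CPM in wild type and 3.05, 1.30 and 2.82 CPM in knockout. It rose by 2.64 ± 0.58 (SE) on the log2 scale (edgeR adjusted p = 0.0339), but was not past the threshold in the fits without number 25, 29, 31 or 40, where the adjusted p reached 0.111. Aldh3b2, next to it, had a log2 fold change of 3.32 ± 0.90 (adjusted p = 0.0627), from 0.232 ± 0.321 to 2.36 ± 1.10 CPM (SD, n = 3 each). All 3 Aldh3b genes were thus above 0, but they share sequence in part, so reads could be split between them. Of the 31-base stretches of Aldh3b1, 14.4% occur in Aldh3b3 and 10.8% in Aldh3b2. Aldh3b2 and Aldh3b3 together had 0.184% to 0.74% of the Aldh3b1 counts in wild type and 1.42% to 2.92% in knockout, so adding all of them to Aldh3b1 would raise it by at most 2.92%. The levels of the 2 low genes are uncertain.

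Of the remaining tested family genes, none passed, and all but Aldh5a1 had negative values. Aldh18a1, which makes proline and ornithine precursors, was at 72.5, 59.3 and 68.8 CPM in wild type and 60.9, 53.9 and 38.7 CPM in knockout (log2 fold change -0.39 ± 0.17 SE, edgeR adjusted p = 0.188). Aldh6a1, an enzyme of valine breakdown, had -0.53 ± 0.29 (adjusted p = 0.284), and Aldh16a1 -0.13 ± 0.09 (adjusted p = 0.416). Aldh4a1 of proline breakdown had -0.21 (adjusted p = 0.499), Aldh7a1 -0.17 (adjusted p = 0.69) and Aldh5a1 of GABA breakdown 0.43 (adjusted p = 0.594). Aldh1l1, a folate enzyme, was at 8.97, 3.89 and 1.97 CPM in wild type and 1.97, 0.803 and 0.409 CPM in knockout (-2.21 ± 0.72 SE, adjusted p = 0.102), wild-type library 25 standing far above the others. Over the alternatives its adjusted p ran from 0.00985 (DESeq2) to 0.255 (without knockout library 40).

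Genes that supply, carry, break down or respond to retinoic acid and its precursors went in either direction, more of them above 0 than below, and most did not pass. Of 37 genes in 4 retinoid lists, 21 were tested. Of these, 4 rose, 1 fell and 16 did not pass, where 5.45% of all genes tested rose and 3.12% fell. The median log2 fold change was 0.34, with 17 genes above 0 and 4 below. Rdh12, which reduces retinaldehyde back to retinol, rose from 10.4 ± 2.43 to 34.8 ± 8.30 CPM (SD, n = 3 each; log2 fold change 1.74 ± 0.23 SE, edgeR adjusted p = 0.00739), and passed in all 6 fits without 1 library. Dhrs9, a retinol dehydrogenase, rose by 1.65 ± 0.31 (adjusted p = 0.0214), but not in the fits without number 25, 29, 31 or 40, where it reached 0.081. Of 9 tested retinol dehydrogenases, these 2 rose and 7 did not pass.

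Rbp4, the plasma carrier of retinol, fell from 1.43 ± 0.39 to 0.101 ± 0.0552 CPM (SD, n = 3 each; log2 fold change -3.75 ± 0.55 SE, edgeR adjusted p = 0.0102). Cyp26a1, which breaks down retinoic acid and is itself a retinoic acid target, was at 0.706, 0.521 and 0.92 CPM in wild type and 1.38, 2.71 and 5.72 CPM in knockout. It rose by 2.18 ± 0.55 (adjusted p = 0.0491), and of the fits that left out 1 library it passed only in that without knockout library 31, reaching 0.158 without knockout library 40. Cebpe, a granulocyte transcription factor and retinoic acid target, rose by 0.85 ± 0.15 (edgeR adjusted p = 0.0199). It did not pass without wild-type library 25 or 27, where the adjusted p reached 0.0576, nor without libraries 27 and 29 together (0.152). Of the 4 tested retinoic acid receptors 0 passed by edgeR or limma-voom, 2 passed by DESeq2 and 2 had an unadjusted edgeR p under 0.05, with Rarg at 0.90 ± 0.33 and Rxra at 0.73 ± 0.27 (adjusted p = 0.13 and 0.139).

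The next lists held alcohol dehydrogenases, carbonyl and aldo-keto reductases, NRF2 targets, fatty aldehyde and ether lipid enzymes, and carnitine genes, many of which do not act on aldehydes. Of 61 genes in these 5 lists found in the table, 48 were tested. Of these, 3 rose, 2 fell and 43 did not pass, with a median of 0.01. Over all genes tested, 5.45% rose and 3.12% fell. The pentose phosphate enzymes G6pdx and Pgd, counted among NRF2 targets, rose by 1.09 ± 0.15 and 0.56 ± 0.13 (edgeR adjusted p = 0.00804 and 0.0386), G6pdx lying on the X chromosome. Crat, carnitine acetyltransferase, rose by 0.55 ± 0.11 (adjusted p = 0.0244), while Far2, which makes fatty alcohols, and Cbr4, a carbonyl reductase, fell by 0.59 ± 0.13 and 0.72 ± 0.18 (adjusted p = 0.0357 and 0.0475). G6pdx remained past the threshold in all 6 fits that left out 1 library. Pgd did not without number 25, 27, 31 or 40 (highest adjusted p 0.127). Crat and Cbr4 passed only in the fit without knockout library 32, and Far2 only in that without wild-type library 27 (highest 0.0846, 0.149 and 0.124, each without knockout library 40). Adh5, the formaldehyde-clearing alcohol dehydrogenase, had -0.14 ± 0.11 and its partner Esd 0.05 ± 0.10 (adjusted p = 0.444 and 0.809).

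The Fanconi anemia pathway repairs the DNA crosslinks that aldehydes cause. Of its 20 tested genes 0 passed by edgeR or limma-voom, 1 (Fanca) passed by DESeq2, and 1 had an unadjusted edgeR p under 0.05. Their median log2 fold change was -0.11. Over all genes tested, edgeR called 8.57%. Fanca was at 106 ± 5.42 and 132 ± 6.90 CPM (SD, n = 3 each; log2 fold change 0.32 ± 0.09 SE, edgeR adjusted p = 0.0634, and 0.0205 to 0.472 over the alternatives), and Fancd2 had -0.36 ± 0.16 (adjusted p = 0.196).

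Of the 12 monocyte and macrophage markers, Csf1r, Lyz2 and Ms4a7 rose and the other 9 did not pass by the edgeR test. Over all genes tested, 5.45% rose. The 12 monocyte and macrophage markers summed to 1147 to 1696 CPM in wild type and 3039 to 4998 CPM in knockout, sums in which Lyz2 alone had means of 654 and 2725 CPM. The 9 stem and progenitor markers summed to 336 to 494 CPM in wild type and 253 to 411 CPM in knockout, ranges that overlapped, with 1 of 6 tested, Mecom, higher. No gene of these 3 marker lists was at 0 in all libraries. Knockout library 40, with the highest neutrophil and monocyte sums, had the highest Aldh2, Aldh3a2 and Aldh3b1 and the lowest Aldh1b1. Among knockout libraries 31, 32 and 40, Aldh3a2 rose and Aldh1b1 fell in the order of the neutrophil sums. Aldh2 and Aldh3b1 ran there in the order of the monocyte sums but not of the neutrophil sums. In wild-type libraries 25, 27 and 29, Aldh3b1 (112, 135 and 133 CPM) ran in the order of the monocyte sums (1147, 1696 and 1474 CPM). Aldh2 ran there in the reverse of that order, and Aldh3a2 followed neither sum. Library 32 had a neutrophil sum of 21552 CPM against 12947 CPM in library 31, but a lower Aldh2 (828 against 887 CPM) and Aldh3b1 (189 against 207 CPM). Its monocyte sum was also the lower of the pair (3039 against 3486 CPM), as was its Aldh1b1 (8.75 against 9.97 CPM). Wild-type library 25 had the lowest neutrophil sum (1058 CPM) and the highest wild-type Aldh2 (758 CPM), and library 29 the highest sum of its group (3900 CPM) and its highest Aldh1b1 (19.5 CPM). The part of these cells in the members' differences was not tested.

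**Figure D4:**
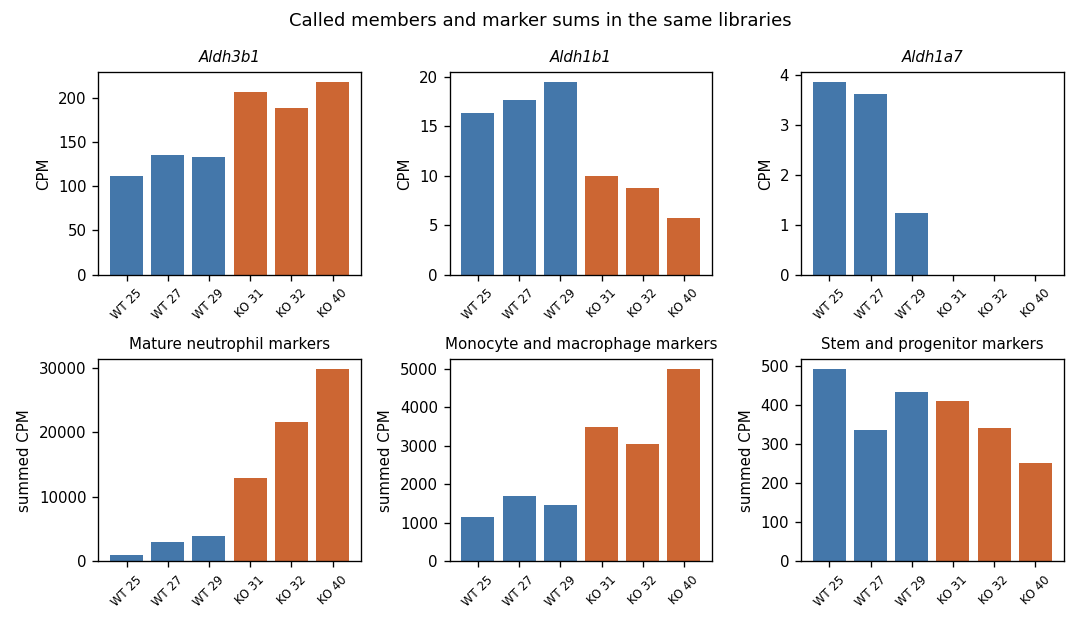
CPM of the 3 called members (top) and summed CPM of marker lists (bottom) in the same 6 libraries, each bar 1 library, with wild type in blue and knockout in orange. The neutrophil sum is 1058 to 3900 CPM in wild type and 12947 to 29868 CPM in knockout, with no overlap, and the bars within a group do not follow the same order for every gene and list.

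The genes whose log2 CPM followed each member most closely over the 6 libraries were taken by Pearson's r, as a description with no p, since all points share the group difference. For Aldh3b1 they were Nmb, Rnf10 and Map6 (r = 0.999, 0.996 and 0.996). For Aldh1b1 they were Ndufv1, a complex I subunit, Rad18, a DNA damage tolerance ligase, and Cmtm7 (0.999, 0.995 and 0.994). Aldh3a2 ran with Slfn4, Ppp1r3d and Arrb2 (0.997, 0.997 and 0.996), and Aldh2 with Jak1, Rab5c and Nck1 (0.996, 0.995 and 0.994). Aldh1a7 ran with Tmem52b, Cttn and Nip7 (0.995, 0.994 and 0.994), and Aldh9a1, which differed least, with Prdx2, Gtf3c6 and Rnaseh2c (0.988, 0.987 and 0.983). Each set is the top 3 of the protein-coding genes averaging 1 CPM or more across only 6 libraries, so low genes can enter, as Map6 did with 0.222 CPM (wild type) and 1.86 CPM (knockout).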

How the data were processed

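Bulk RNA of 6 libraries, 3 labelled Rbm5 knockout and 3 wild type by their titles, was counted per gene. The deposited table holds whole-number counts by the authors, not normalized, for 56748 genes. The submitters' processing notes list the tools Salmon and limma, and GRCm38 and mm10 as builds, with no role for any. How counts were rounded or strand was used was not given in the sources used here. Gene lengths deposited with the counts served only for levels per kilobase.

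The members and gene lists were chosen with earlier results of these data known. Genes were kept by edgeR's filterByExpr (minimum count 10, minimum total 15), scaled by TMM and tested by edgeR 4.0.16's robust quasi-likelihood test in R 4.3.3, Benjamini-Hochberg adjusted over 15963 genes, threshold 0.05. Each SE is the fold change divided by the root of F. Of 227 symbols in 21 lists, 226 were in the table. All 9 members were named whatever their values. Of other lists, up to 4 called genes with the smallest p were named, or the 2 smallest with none called, other Aldh genes of at least 1 CPM, the nearest tested genes, and the 3 genes most alike by Pearson's r of log2(CPM + 0.5) among protein-coding genes of at least 1 CPM. Floors cover counting error only, and the interval of a fold change comes from the fit and includes the spread between libraries. The p-values set the difference between groups against the spread between libraries within groups. On simulated data (knockout against wild type, 15963 genes, 10 draws with 200 genes changed), 9.4% of genes changed 1.5-fold were recovered, 51.2% changed 2-fold and 84.5% changed 4-fold, and 9.39% of calls were false. That false share is above the threshold of 0.05. The 200 changed genes are fewer than the 1368 called in the data, so these rates need not hold for the data.

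Alternatives were RLE and total-count scaling, no filter, 1 CPM in 3 libraries, DESeq2 1.42.0, limma-voom (limma 3.58.1), each library left out, wild-type libraries 27 and 29 left out together, and Aldh1a1 and Aldh1a7 summed. Sequence identity used Biopython on GENCODE M21 transcripts.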

Additional observations from a re-analysis of the deposited data

How the results depend on the processing

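The fold changes of the 6 tested members kept their sign in every alternative run, except that Aldh9a1 was above 0 without wild-type library 29 and without libraries 27 and 29. With 1 library left out, genes called over the whole table ranged from 245 to 787 higher and 102 to 440 lower, listed aldehyde dehydrogenases from 1 to 1 higher and 1 to 2 lower, other aldehyde dehydrogenases from 0 to 1 higher, retinoid genes from 2 to 3 higher, and aldehyde and redox genes from 1 to 3 higher and 0 to 1 lower. DESeq2 called 1553 genes higher and 1054 lower, with 3 listed aldehyde dehydrogenases higher, 2 other aldehyde dehydrogenases higher and 1 lower, 7 retinoid genes higher and 3 lower, 11 aldehyde and redox genes higher and 4 lower, and 1 Fanconi anemia gene higher. Leaving out wild-type libraries 27 and 29, after which the lone wild-type library is taken to vary as the knockouts do, gave 305 genes higher and 148 lower, 1 listed member lower, 1 retinoid gene higher and 0 aldehyde and redox genes lower. Without the filter, 836 genes were lower and 7 aldehyde and redox genes higher. limma-voom called 2 other aldehyde dehydrogenases higher, and summing Aldh1a1 and Aldh1a7 left 1 listed member lower. Total counts alone gave 46.7% of calls higher, against 63.6%. The cause of these moves was not tested, except that fewer libraries entered some fits. Members under 1 CPM are limited by depth. No paired analysis was possible because the groups share no replicate numbers.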
